A study of Mus musculus with 6 samples.

Results

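The mitochondrial ribosomal proteins are the nuclear-encoded proteins of the ribosome inside mitochondria, and they were described here in carotid bodies of the inbred mouse strains A/J and DBA/2J. Members were all probe sets (groups of oligonucleotides on the array that read the same transcript) whose platform annotation names a gene with a symbol starting Mrpl or Mrps and a digit, and no other gene. This gave 156 of the 45101 probe sets on the array, for 76 genes. After the dimmest 40% of probe sets had been set aside by their mean over all arrays, 135 member probe sets were kept, and all 76 genes had at least 1 among them. Each gene was represented by its probe set with the highest mean.

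The carotid body is a tiny chemosensory organ beside the carotid artery that detects a fall in blood oxygen. It was taken from untreated male mice at 28 days of age. The 3 A/J arrays carried RNA pooled from 20, 21 and 19 mice, and the 3 DBA/2J arrays RNA pooled from 19, 18 and 19 mice. The comparison asked which genes differ between the strains, and both groups are unmodified inbred strains with no transgene or agent. Because the arrays are pools, the spread between them is that between pools and not between mice, and the 3 arrays per strain limit the precision of every value. Median signals of the arrays lay between 163.6 and 183.

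Mitochondria translate the few proteins that mitochondrial DNA encodes, all of them subunits of the respiratory chain and ATP synthase, on ribosomes of their own. The RNA of these ribosomes comes from mitochondrial DNA, while every ribosomal protein is made in the cytosol from a nuclear gene and imported. Proteins named Mrpl belong to the large subunit, which joins amino acids, and most named Mrps to the small subunit, which reads the message. Some descend from bacterial ribosomal proteins, and others are found only in mitochondrial ribosomes. In carotid body the respiratory chain has a further interest, since type I cells use mitochondria in sensing oxygen.

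The promoters of 4 members are shown because the results turn on them or because they show a searched motif: Mrpl35 and Mrps27, the members that passed the test between strains, Mrpl12, which holds a motif of the nuclear respiratory factor NRF1, and Mrpl16, which had the largest difference towards DBA/2J. Each window runs from 250 bases before to 50 bases after the gene's start, 5′ to 3′ on the gene's strand, from RefSeq on GRCm38.p6: chr6:71823735-71824034 on the minus strand for Mrpl35, chr13:99344536-99344835 on the plus strand for Mrps27, chr11:120484387-120484686 on the plus strand for Mrpl12 and chr19:11770165-11770464 on the plus strand for Mrpl16. Capitals mark the searched motifs, found on either strand: the palindromic NRF1 consensus with any base at the fifth position, CCGGAAG for ETS factors such as GABP, and AAGATGGCG for YY1.
Mrpl35: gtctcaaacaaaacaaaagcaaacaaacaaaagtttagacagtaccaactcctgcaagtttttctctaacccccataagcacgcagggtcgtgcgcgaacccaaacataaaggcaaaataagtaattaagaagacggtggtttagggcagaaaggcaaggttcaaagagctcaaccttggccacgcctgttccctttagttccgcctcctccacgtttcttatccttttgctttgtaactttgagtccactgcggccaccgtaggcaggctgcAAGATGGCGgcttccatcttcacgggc
Mrps27: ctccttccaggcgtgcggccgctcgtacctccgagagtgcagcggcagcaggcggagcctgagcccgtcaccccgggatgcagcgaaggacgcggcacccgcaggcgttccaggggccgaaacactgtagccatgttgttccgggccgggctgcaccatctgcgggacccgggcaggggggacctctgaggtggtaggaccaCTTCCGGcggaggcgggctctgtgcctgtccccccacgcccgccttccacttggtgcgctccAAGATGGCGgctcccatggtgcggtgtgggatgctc
Mrpl12: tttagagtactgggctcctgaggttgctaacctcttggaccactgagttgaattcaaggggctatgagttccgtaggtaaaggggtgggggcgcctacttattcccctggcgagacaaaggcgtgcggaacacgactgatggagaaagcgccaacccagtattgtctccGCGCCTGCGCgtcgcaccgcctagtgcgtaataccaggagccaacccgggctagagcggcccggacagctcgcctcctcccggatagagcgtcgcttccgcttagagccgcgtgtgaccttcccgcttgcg
Mrpl16: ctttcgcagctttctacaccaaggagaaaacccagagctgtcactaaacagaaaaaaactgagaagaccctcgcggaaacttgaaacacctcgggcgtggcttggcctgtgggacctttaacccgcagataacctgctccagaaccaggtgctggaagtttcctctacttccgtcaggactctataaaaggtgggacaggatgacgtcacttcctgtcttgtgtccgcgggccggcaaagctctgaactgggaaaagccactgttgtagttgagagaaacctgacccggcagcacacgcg
The Mrpl35 window holds the YY1 motif at bases 274 to 282, just after the start. The Mrps27 window holds the YY1 motif at bases 265 to 273 and an ETS motif, read on the opposite strand, at bases 203 to 209. The Mrpl12 window holds the NRF1 motif at bases 170 to 179, and the Mrpl16 window holds none of the 3.

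Promoter windows matched 67 of the 76 genes by gene identifier, with 73 windows in all. The ETS motif was in 34.2% of these windows and in 8.86% of all 32851 windows in the table. The NRF1 motif was in 16.4% against 4.6%, and the YY1 motif in 11% against 1.4%. At least 1 of the 3 motifs was in 53.4% of member windows and 13.6% of all windows. The member windows were also richer in G and C, with a median of 58.7% against 52.7% and a median of 21 CpG pairs against 7, and the table of all windows includes genes that make no protein. A motif match describes the letters only.

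Many members lay back to back with another gene. A gene starting on the other strand within 1000 bases upstream was found for 25 of the 67 members, or 37.3%, against 12.3% of all genes in the table. Mrps11 and Mrpl46, proteins of the small and the large subunit, start 42 bases apart from each other. Mrps12 lay beside Sars2, the mitochondrial seryl-tRNA synthetase, Mrpl43 beside Twnk, the mitochondrial DNA helicase, and Mrpl47 beside Ndufb5, a subunit of complex I. The members and their neighbours did not always lie on the same side of 0. All differences here and below are log2(signal + 16) in DBA/2J less that in A/J, and by this measure Mrps12 was at 0.32 and Sars2 at -0.41, Mrpl43 at 0.28 and Twnk at -0.24, Mrpl47 at -0.37 and Ndufb5 at -0.65, and Mrpl46 at -0.27 and Mrps11 at 0.08. Of the 17 neighbours kept for the test, 0 passed it with limma, a linear model with moderated variance. Of all genes, 1.6% passed as lower and 2.17% as higher, so 0 of 17 does not set the neighbours apart. The 17 include Mrps11 and Mrpl46, which are members themselves.

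Between the strains, most mitoribosomal genes lay slightly lower in DBA/2J, and few of them passed the test. Of 76 genes, 2 fell in DBA/2J (limma, Benjamini-Hochberg adjusted p under 0.05), 0 rose and 74 did not pass. Of all 13006 genes tested by the same rule, 1.6% were lower and 2.17% higher, so the members' share of calls was near the background on the lower side. The median difference over the members was -0.19, with the central 50% of them between -0.37 and 0.04, beside a median of 0.03 over all genes. Negative differences were found for 53 members, or 69.7%, where 47% of all genes were negative and 53% positive. Without DBA/2J array 3 the negative members numbered 41, and without DBA/2J array 2 they numbered 59. At an unadjusted limma p under 0.05, 10 members were lower and 1 was higher, beside 7.83% and 9.3% of all genes. The 3 DBA/2J arrays lay below the 3 A/J arrays in 10 members and above them in 3, while 9.69% and 13% of all genes were separated in those directions.

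**Figure D1:**
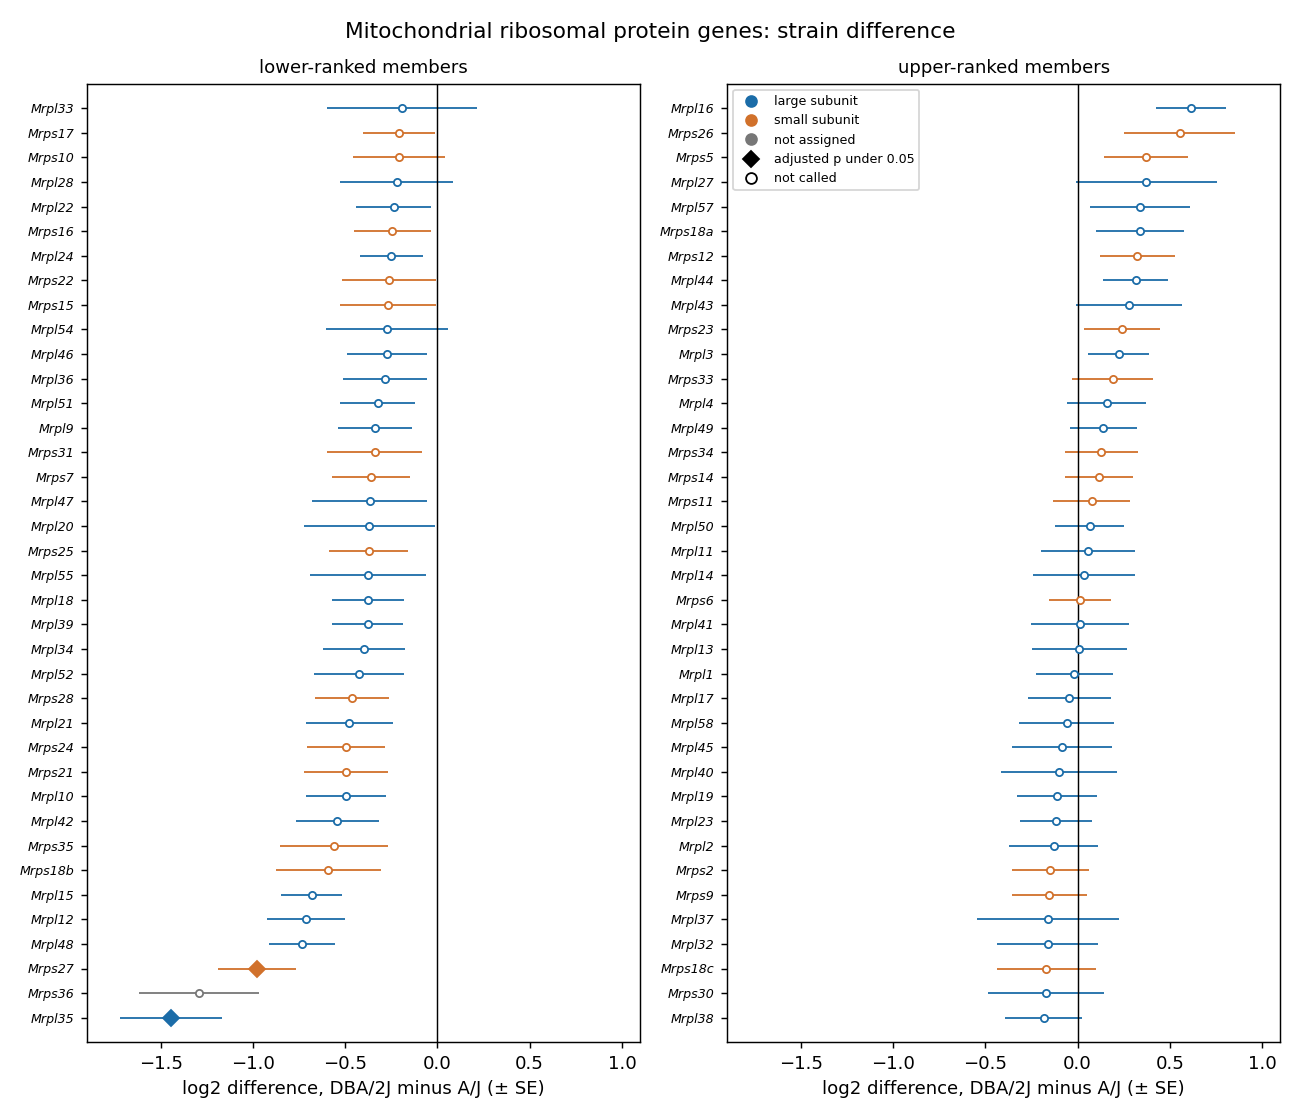
Log2 difference between DBA/2J and A/J (points, with SE bars) for each of the 76 mitoribosomal genes, ordered by size, with the lower-ranked genes on the left and the upper-ranked on the right. Most points lie left of 0 (53 of 76), the range runs from -1.44 for Mrpl35 to 0.62 for Mrpl16, and the filled diamonds, Mrpl35 and Mrps27, passed an adjusted p of 0.05.

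Mrpl35, a large-subunit protein of bacterial type, had the largest difference of all members. Its signals (probe set 1419363_a_at) were 3042.3, 2454.7 and 2168.3 on A/J arrays 1, 2 and 3, against 808.2, 1404.4 and 688.4 for DBA/2J. Every DBA/2J pool lay below every A/J pool, and DBA/2J array 2 came closest. The means were 2555 ± 446 and 967 ± 384 (SD, n = 3), a log2 difference of -1.44 (SE 0.28, adjusted p = 0.0246), or 2.72-fold lower. A further kept probe set of the gene was at -0.95 (adjusted p = 0.165). Another, too dim over all arrays to be kept, read 281.2, 155.9 and 278.0 in A/J and 14.7, 12.6 and 12.9 in DBA/2J. The order of strains was the same, but its DBA/2J values are near background.

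Mrps27, an RNA-binding protein of the small subunit found only in mitochondria, was the other member that fell. Its signals were 475.3, 534.3 and 492.3 in A/J and 293.0, 196.2 and 259.4 in DBA/2J, with no overlap and a narrow spread in A/J. The means were 501 ± 30.4 and 250 ± 49.1, and the log2 difference was -0.98 (SE 0.21, adjusted p = 0.0415). Its back-to-back neighbour Ptcd2, which processes mitochondrial RNA, was at -0.27 (adjusted p = 0.639).

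Both calls changed when arrays were left out, except that of Mrpl35 without DBA/2J array 2. Without A/J array 1, 2 or 3, the limma adjusted p of Mrpl35 was 0.113, 0.0713 and 0.0661, and that of Mrps27 was 0.120, 0.118 and 0.145. Without DBA/2J array 1, 2 or 3, Mrpl35 had 0.124, 0.00229 and 0.0791 and Mrps27 had 0.0921, 0.0604 and 0.0924. The count of members that fell was thus 0 without any array but DBA/2J array 2. Without that array it was 4, namely Mrpl35, Mrpl48, Mrps35 and Mrps36. Calls over all probe sets moved likewise, from 883 with 6 arrays to 1351 without DBA/2J array 2 and to between 341 and 640 without any other array. The differences themselves moved little, from -1.74 to -1.23 for Mrpl35 and from -1.09 to -0.82 for Mrps27.

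A further 6 members with the largest separated differences towards A/J did not pass the adjusted threshold. Mrps36, named for the small subunit but since assigned to the oxoglutarate dehydrogenase complex of the citric acid cycle, read 2051.5, 1158.3 and 1878.2 in A/J and 525.5, 1067.1 and 519.3 in DBA/2J. A/J array 2 and DBA/2J array 2 nearly met, and the difference was -1.29 (SE 0.33, adjusted p = 0.0748). Without DBA/2J array 2 its limma adjusted p was 0.00943, and without any other array it was between 0.0623 and 0.278. Mrpl48, a large-subunit protein found only in mitochondria, read 3273.7, 2753.5 and 2693.5 against 1737.8, 1948.6 and 1536.8, a difference of -0.74 (adjusted p = 0.0654). Without DBA/2J array 2 its limma adjusted p was 0.0432, and without any other array it was between 0.122 and 0.228.

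Mrpl12 and Mrpl10 are proteins of the stalk of the large subunit, the flexible arm that receives translation factors. Mrpl12 read 2561.6, 1776.8 and 1627.0 in A/J and 1230.1, 1186.3 and 1139.3 in DBA/2J, where the 3 pools were close together, and differed by -0.71 (SE 0.21, adjusted p = 0.127). Mrpl10 read 1820.4, 1478.3 and 1519.5 against 1317.8, 859.4 and 1270.0, a difference of -0.50 (adjusted p = 0.318). Both lay lower on every DBA/2J array than on any A/J array. The third stalk protein measured, Mrpl11, overlapped widely, with 2052.2, 1600.0 and 1169.5 against 1373.5, 1486.4 and 2113.8 and a difference of 0.06 (95% interval -0.52 to 0.63).

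Mrpl15, a bacterial-type protein of the large subunit, read 3926.5, 3179.7 and 3416.1 in A/J and 2244.3, 2223.3 and 2056.3 in DBA/2J, a difference of -0.68 (SE 0.17, adjusted p = 0.0653). Mrps28, a small-subunit protein, read 2065.7, 2142.7 and 1973.6 against 1701.5, 1675.9 and 1158.1, a difference of -0.46 (adjusted p = 0.311). In Mrps28, DBA/2J array 3 lay well below the other DBA/2J arrays. Mrpl18 and Mrpl24, of the large subunit, were the remaining separated members, at -0.38 and -0.25.

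On the other side, 3 members lay higher on all DBA/2J arrays, and none passed. Mrpl16, a large-subunit protein near the tRNA sites, read 1323.0, 1216.4 and 1319.8 in A/J and 1731.0, 2427.6 and 1841.3 in DBA/2J, a difference of 0.62 (SE 0.19, adjusted p = 0.145). Mrpl44, which has a fold related to ribonuclease III, had means of 1776 ± 136 and 2219 ± 269 and a difference of 0.32 (adjusted p = 0.462). Mrpl3, a bacterial-type large-subunit protein, had 1497 ± 15.8 and 1751 ± 82.7 and a difference of 0.22 (adjusted p = 0.608).

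**Figure D2:**
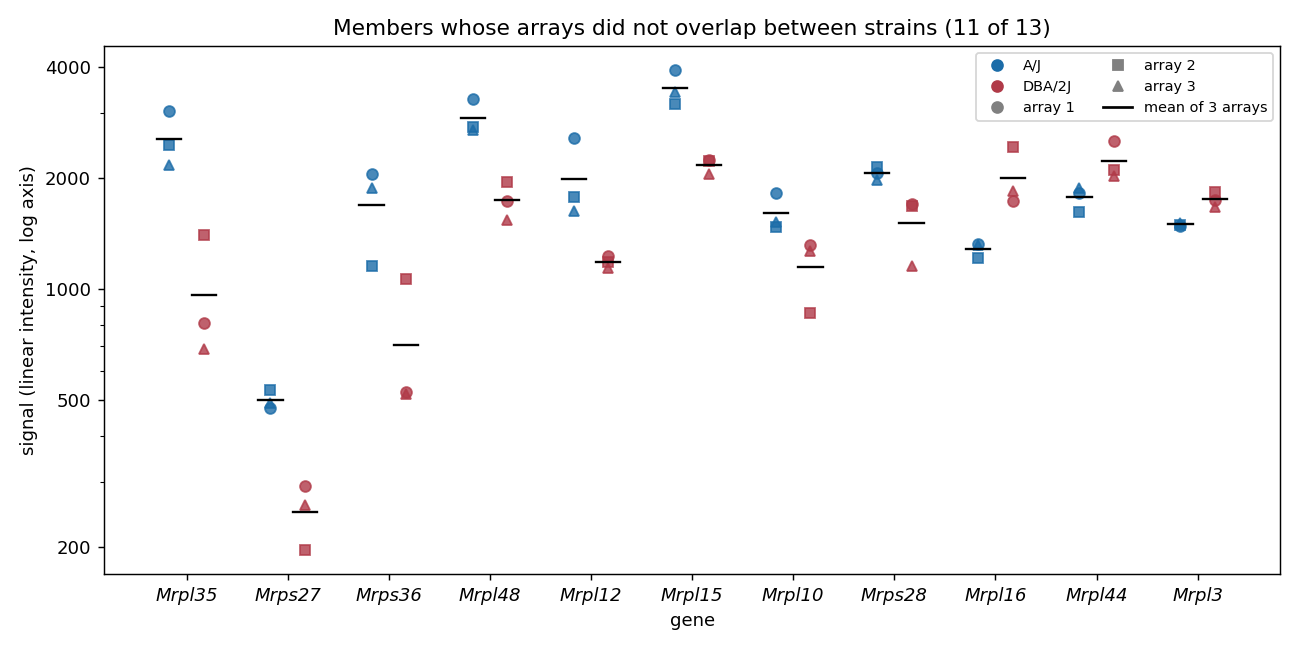
Signal on each array (log axis) for 11 of the 13 members whose arrays did not overlap between the strains, with A/J in blue, DBA/2J in red and horizontal bars at the mean of 3 arrays. Mrpl35 has the widest gap between means (2555 and 967), DBA/2J array 2 (square) is the highest DBA/2J pool for Mrpl35 and Mrps36, and Mrpl16, Mrpl44 and Mrpl3 are the members with DBA/2J on top.

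By the rule stated for the series, applied to the probe set that stood for each gene, 5 members were lower and 0 higher: Mrpl35, Mrps36, Mrps27, Mrpl48 and Mrpl15. That rule asked for a 1.5-fold change in at least 6 of 9 pairwise comparisons and a p under 0.05, and the unadjusted limma p stood in for its test here. It passed 4.83% of all genes as lower and 5.8% as higher. Mrpl35 and Mrps27 differed by at least 1.5-fold in 9 of 9 array pairs, Mrps36 in 8, and Mrpl48 and Mrpl15 in 7. Of the other kept probe sets, 1442016_at of Mrpl48 passed as higher in 9 of 9 pairs. So did 1443262_at of Mrps14, with an A/J mean of 84.7, in 7 pairs. That mean is under 114, the signal level of the filter, so 1443262_at was kept through DBA/2J. Others of Mrpl15 and Mrpl35 passed as lower. Among them, 1430798_x_at and 1451623_at of Mrpl15 were under that level in DBA/2J and kept through A/J. For the probe sets kept through a single strain, passing was in part set by the filter.

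Among members of known role, those below overlapped between the strains. Mrps12, at the decoding centre of the small subunit, averaged 787 ± 131 and 985 ± 116 (A/J, then DBA/2J), a difference of 0.32 with a 95% interval from -0.14 to 0.78. Mrps16 and Mrps22, small-subunit proteins whose loss in humans impairs mitochondrial translation, were at -0.24 (interval -0.72 to 0.23) and -0.26 (interval -0.84 to 0.31). Mrpl41, found only in mitochondria, was at 0.01 (interval -0.59 to 0.61). These intervals leave room for changes of either sign.

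The Mrps18 genes encode 3 relatives of bacterial protein S18, of which Mrps18a sits in the large subunit and the others in the small subunit. Mrps18b read 1727.9, 849.8 and 1150.9 in A/J and 991.9, 630.9 and 772.6 in DBA/2J, a difference of -0.59 (adjusted p = 0.377). Mrps18c was at -0.17 (adjusted p = 0.840) and Mrps18a at 0.34 (adjusted p = 0.585). The 3 relatives thus spanned both signs, and none was separated between the strains.

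The kinds of member had similar medians, and no test was made between them. Mrps36 was counted in neither subunit. The 49 large-subunit genes had a median difference of -0.17 with 35 negative, and the 26 small-subunit genes had -0.21 with 17 negative. The 46 bacterial-type genes had a median of -0.20 and the 28 found only in mitochondria -0.17. Each of these 4 groups held 1 of the calls: Mrpl35 is of the large subunit and bacterial type, and Mrps27 is of the small subunit and found only in mitochondria. The central 50% of large-subunit genes ran from -0.37 to 0.01 and that of small-subunit genes from -0.37 to 0.11.

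Probe sets of the same gene did not always read alike. Counted over the 135 kept probe sets, 4 fell and 1 rose, beside 1.41% lower and 1.86% higher among all 27022 probe sets tested. Of 34 genes with more than 1 kept probe set, 19 had probe sets on both sides of 0, and 3 had probe sets over 1 apart on the log2 scale. Mrpl15 had 7 kept probe sets, all lower in DBA/2J, from -2.26 to -0.67. Those that fell, 1430798_x_at and 1451623_at, were dimmer than the probe set that stood for the gene. Their DBA/2J means were under 114, the signal level of the filter, so they were kept through the A/J arrays, and their differences are against values near background. In all, 3 of the 135 kept member probe sets were under that level in DBA/2J and 2 in A/J, while the probe sets that stood for the 76 genes were above it in both strains. The first read 439.2, 545.9 and 419.3 in A/J and 93.4, 100.3 and 63.6 in DBA/2J (difference -2.26, adjusted p = 0.00131). The other had 275 ± 53.9 and 52.0 ± 15.9 (difference -2.10, adjusted p = 0.00408).

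Mrpl48 had a probe set of the opposite direction. Its dimmer probe set 1442016_at read 344.5, 272.2 and 399.1 in A/J and 708.3, 626.2 and 676.3 in DBA/2J, the only member probe set that rose (difference 0.97, adjusted p = 0.0388), while the other kept probe sets were at -0.74 and -0.56. Mrps5, a small-subunit protein, had 5 kept probe sets from -0.47 to 0.75, and the brightest, at 0.37 (adjusted p = 0.512), stood for the gene. When all kept probe sets of a gene were averaged, Mrpl15 joined the members that fell, at -1.23, a value that includes the probe sets kept through A/J, and Mrpl48 went to -0.11.

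**Figure D3:**
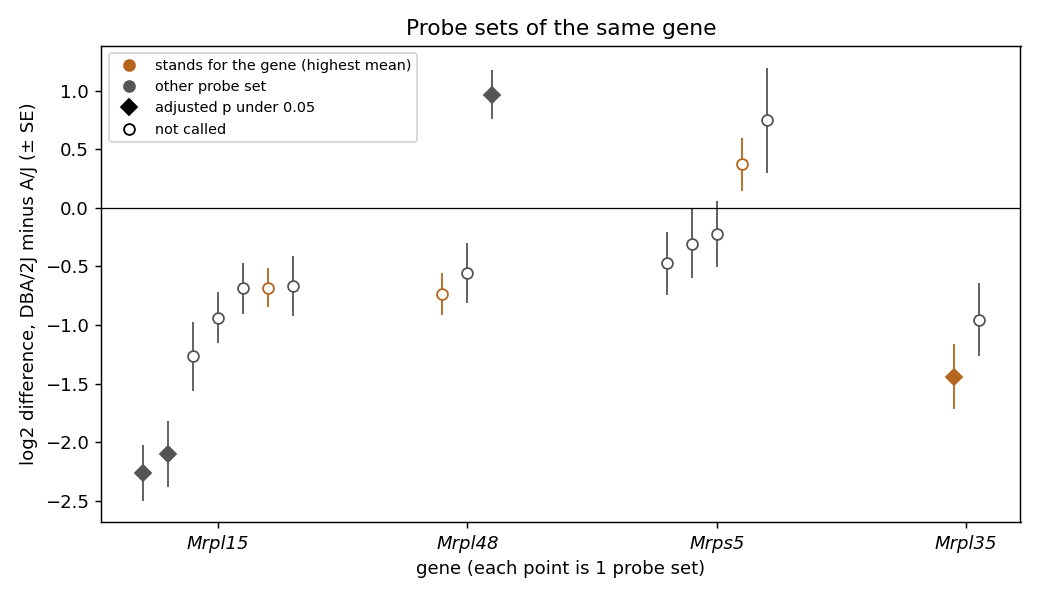
Log2 difference with SE for every kept probe set of Mrpl15, Mrpl48, Mrps5 and Mrpl35, where brown points stand for the gene and filled diamonds passed an adjusted p of 0.05. All 7 Mrpl15 probe sets lie below 0, from -2.26 to -0.67, while those of Mrpl48 range from -0.74 to 0.97 and those of Mrps5 from -0.47 to 0.75.

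The level of the members as a group differed between arrays of the same strain. For each gene the mean of its 6 log2 values was subtracted, and the median over the 76 members was then 0.17, -0.04 and 0.13 for A/J arrays 1 to 3, against -0.04, 0.16 and -0.38 for DBA/2J arrays 1 to 3. DBA/2J array 2 was thus as high as A/J arrays 1 and 3, and DBA/2J array 3 was below all others. Of 76 members, 49 (64.5%) had their lowest value of 6 on DBA/2J array 3, against 20.1% of all genes, and 26 (34.2%) had their highest on DBA/2J array 2, against 23.9%. The highest value was on A/J array 1 for a further 26 (34.2%), against 17.2% of all genes. The median SD between arrays of a strain was 0.21 in A/J and 0.31 in DBA/2J for members, and 0.24 and 0.26 for all genes. Between the A/J and DBA/2J arrays that carry the same number in their titles, the median member difference was 0.22 for the pair of arrays 2 and -0.48 for the pair of arrays 3. Leaving out DBA/2J array 3 brought the median over members from -0.19 to -0.03, and leaving out DBA/2J array 2 brought it to -0.32.

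**Figure D4:**
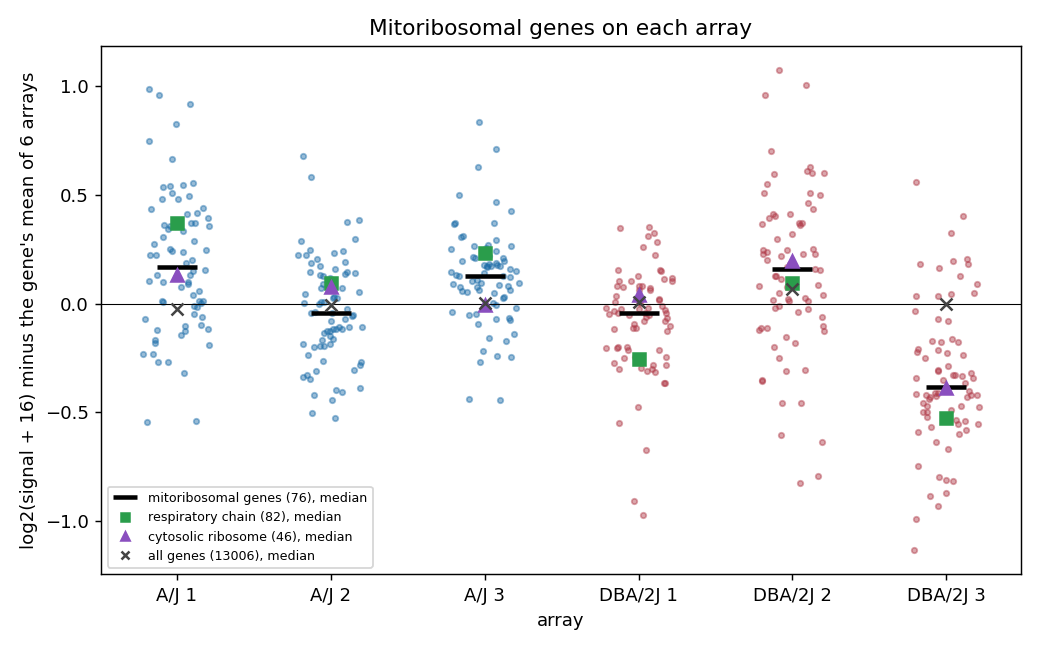
Each point is a mitoribosomal gene on 1 array, as log2(signal + 16) minus that gene's mean over 6 arrays, with A/J in blue and DBA/2J in red; bars and symbols give the medians of the members and of 3 other gene sets. The member median is highest on A/J array 1 (0.17) and DBA/2J array 2 (0.16) and lowest on DBA/2J array 3 (-0.38), where the median of all genes is near 0.

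The ratio of 3′ to 5′ control probe sets for Gapdh, a measure of RNA integrity and labelling in which larger values mean more loss at the 5′ end, was 1.74, 4.87 and 1.81 for A/J arrays 1 to 3, against 2.5, 3.28 and 1.73 for DBA/2J. Within each strain it was highest on array 2. Its part in the array differences of the members was not tested.

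Cytosolic ribosomal proteins and respiratory chain subunits showed the same dip on DBA/2J array 3. The 46 cytosolic ribosomal genes had an array median of -0.39 there, and the 82 respiratory chain and ATP synthase genes -0.53. Between the strains, the respiratory chain genes had a median difference of -0.45 with 78 of 82 negative, beside -0.19 with 53 of 76 for the mitoribosomal genes and -0.10 with 33 of 46 for the cytosolic ribosomal genes. Of all genes, 47% were negative. Among the respiratory chain genes 2 fell, Cox6a2, a subunit isoform of heart and skeletal muscle, and Ndufc1 of complex I. Of the 82 probe sets that stood for these genes, 1 was under the level of the filter in A/J and 1 in DBA/2J. Among cytosolic ribosomal genes Rpl3l, a muscle form whose DBA/2J mean was under the level of the filter, fell and Rpl14 rose. As 1.6% of all genes passed as lower and 2.17% as higher, these few calls cannot be set apart from that background. No set was tested against another.

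The rest of the mitochondrial translation apparatus gave few calls. Of all genes, 1.6% were lower and 2.17% higher. In lists as short as these and those below, 0 or 1 call cannot be set apart from that background. Dap3, the small-subunit GTP-binding protein, read 1073.5, 1105.1 and 1501.2 in A/J and 513.1, 843.2 and 671.2 in DBA/2J, separated but not passing (difference -0.86, adjusted p = 0.106). Of the other mitoribosome proteins without an Mrpl or Mrps symbol, Ptcd3 and Chchd1 were at -0.29 and -0.20. Of 13 translation factors 0 passed and 7 were negative, with a median of -0.0046. Those at an unadjusted limma p under 0.05 were 2 lower and 2 higher, beside 7.83% and 9.3% of all genes. The lower were the elongation factor Gfm1 (-0.50) and the mRNA-binding Lrpprc (-0.54), and the higher were the release factor Mtrf1l (0.64) and the elongation factor Guf1 (0.50). Of 16 genes of mitochondrial aminoacyl-tRNA synthesis 0 passed, also at an unadjusted limma p under 0.05, with a median of -0.03.

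Of 21 genes of mitoribosome assembly, Rbfa, a factor that binds the small-subunit RNA, rose and 0 fell. Its signals were 564.5, 575.4 and 616.8 in A/J and 1075.7, 1113.4 and 938.2 in DBA/2J, a difference of 0.81 (adjusted p = 0.0452). Tfb1m, which methylates that RNA, was at -0.62 (adjusted p = 0.169). Of 16 genes of mitochondrial DNA, transcription and their nuclear regulators, Ppargc1b, a coactivator of mitochondrial genes, fell from 1067 ± 148 to 437 ± 189 (difference -1.33, adjusted p = 0.0426) and 0 rose. The factors whose motifs were searched did not pass, with Nrf1 at 0.10, Gabpa at 0.18 and Yy1 at -0.17. Of 16 genes of import and mitochondrial mass, 0 passed and 14 were negative, with a median of -0.22. Cs, citrate synthase, was at -0.66 (adjusted p = 0.0900) and Timm23, the inner membrane import channel, at -0.66 (adjusted p = 0.0709).

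Tissue markers moved with the strains as well. In whole pools, fewer cells of a type and less RNA per cell cannot be told apart. The summed signal of 13 of 14 skeletal muscle markers, all of which fell, was 50509 to 118596 in A/J pools, against 1253 to 2713 for DBA/2J. That of 7 of 8 brown fat markers, of which Ucp1 and Dio2 fell, ran from 26776 to 47747 against 11457 to 22666, and that of 5 of 8 adipocyte markers, of which Fabp4 and Gpd1 fell, from 36185 to 40067 against 18562 to 26860. Of the 13 muscle probe sets, 6 had a DBA/2J mean under the level of the filter and were kept through A/J, so their fall was in part set by the filter. Muscle and brown fat are rich in mitochondria. Within DBA/2J, the muscle and brown fat sums were highest on array 2, where the members were highest too. Within A/J both were lowest on array 2, where the members were lowest. This order was not particular to muscle and brown fat. Adipocyte and glial sums were also lowest on array 2 within A/J (36185 and 21617) and highest on array 2 within DBA/2J (26860 and 18063). Red cell and macrophage sums were highest on DBA/2J array 2 but not lowest on A/J array 2. Type I and endothelial sums were, within DBA/2J, lowest on array 2. On DBA/2J array 3, where the members were lowest, the muscle sum of 1253 was the lowest of the 6 arrays, beside 1332 on array 1, and the brown fat sum of 13609 was above the 11457 of array 1.

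Markers of type I cells, the oxygen-sensing cells themselves, ran the other way, with sums of 11 of 12 markers at 24319 to 29033 in A/J pools, against 55115 to 61902 for DBA/2J, and 8 of the 11 rose. Of these 11 probe sets, 1 had an A/J mean under the level of the filter and was kept through DBA/2J. Chgb, a protein of the secretory vesicle, averaged 4376 ± 903 in A/J pools and 13156 ± 1543 in those of DBA/2J. Of 6 glial markers 1 fell, of 4 red cell markers 2 fell, and of 6 endothelial and 6 macrophage markers 0 passed. Among these, 1 red cell and 1 endothelial probe set had a DBA/2J mean under the level of the filter and were kept through A/J. Summed signals of the glial markers were 21617 to 25154 against 14112 to 18063, and those of red cells 4941 to 5514 against 1651 to 2545. Endothelial sums overlapped, from 3912 to 4771 and from 3650 to 6675, and macrophage sums ran from 23605 to 25273 against 16988 to 22418. The part of these cell types in the members' differences was not tested.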

How the data were processed

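Each of 6 Affymetrix mouse arrays, 3 per strain, carried RNA of a pool of carotid bodies. Per the labels' protocols it was extracted with Trizol and amplified from the poly(A) end by repeated cDNA synthesis and transcription, which can lower probe sets far from the 3′ end. The deposited values are linear intensity signals that the authors had scaled, since the 2%-trimmed mean of every array is 500.00, by software not given in the sources used here. No detection calls were used.

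Values were taken as log2(signal + 16) without the 64 control probe sets, and probe sets in the top 60% by mean over all arrays were kept. The strain contrast was fitted with limma 3.58.1 in R 4.3.3 (lmFit, eBayes with trend, two-sided, no covariate) and adjusted by Benjamini-Hochberg over 27022 probe sets at 0.05. Nothing in the labels says more than that the pools are separate, so p-values measure the spread between these pools. Figures were drawn with matplotlib 3.10.9. The procedure was also run on simulated data with independent noise for each probe set. That simulation held no shift shared by the probe sets of an array, so it does not bear on the array differences of the members.

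Of 45101 probe sets, 34958 name 1 gene, 932 several and 9211 none in the platform annotation. Members and lists were chosen with earlier results of these data known. Members named are those that passed, the 8 largest separated differences in each direction, 12 genes of known role, and genes whose probe sets differ by over 1; of other lists, up to 4 that passed, and of markers, those with the highest means. Mrpl18, Mrpl24, neighbouring genes, and unpassed genes of other lists were named after their values were seen. Alternatives covered pseudocount, scaling, filter, trend, array weights, probe set choice, left-out arrays and a shared title number as a block. The fit over genes alone and the series' own rule were added after seeing the data.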

Additional observations from a re-analysis of the deposited data

How the results depend on the processing

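The count of 2 members that fell stayed at 2 with pseudocounts of 1 and 64, quantile normalization, a filter at the upper 40%, a fit without intensity trend, the random replicate block and adjustment over genes alone, and was 3 with averaged probe sets. It was 1 (Mrpl35) with arrays scaled to 1 median or with no filter, 6 with array weights, 5 by the series' rule and 0 with the fixed replicate block, where Mrpl35 was at -1.22 (adjusted p = 0.404) and Mrps27 at -1.13 (adjusted p = 0.435). Calls over all probe sets went from 883 to 3007 with array weights and to 0 with the fixed block. They went to 835 with scaling to 1 median and 818 with no filter. They also went to 775 with no intensity trend and 713 with the upper 40%, where the member count stayed at 2. When each array was left out in turn, the member count ran from 0 to 4. Members that rose stayed at 0 under every alternative run. The count of 4 member probe sets that fell was 2 with the upper 40%, where dimmer probe sets were not tested, 12 with array weights and 0 with the fixed block, and ran from 2 to 8 over the left-out arrays. The probe set that rose was lost (0) with arrays scaled to 1 median, with no filter and with the fixed replicate block, and the count ran from 0 to 1 over the left-out arrays. The cause of these changes was not tested beyond what is stated. The median difference of -0.19 kept its sign throughout, from -0.32 to -0.03 over the left-out arrays and from -0.21 to -0.16 otherwise. Single members near 0 turned: Mrpl41 to -0.00076 with arrays scaled to 1 median, -0.16 with array weights and -0.022 with averaged probe sets, and from -0.30 to 0.22 over the left-out arrays, where Mrpl11 ran from -0.15 to 0.25 and Mrps18c from -0.49 to 0.0098. The number shared in the titles of arrays 2 and 3 is not stated to mark anything shared. Paired deviations of those arrays correlated at -0.26 and 0.04. Array 1 of each strain shares its title number with no other array. In the fixed block fit the strain difference therefore rests on the pairs of arrays 2 and 3 alone. With 3 arrays per strain and a median SE of 0.22, small differences of single members could not be resolved.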
